A study of Sus scrofa with 5 samples.

Results

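The microRNA (miRNA) profile of pig embryonic stem cell-like (ES-like) cells was compared with that of pig fetal fibroblasts (PFFs). Reads were summed over the precursors of each mature miRNA, and the 292 names with 10 or more reads in at least 1 of these libraries, of 411 reported names in all, form the comparison. Of the others, 31 had a read in at least 1 of the libraries but stayed under the minimum and 88 had none. The nearest name outside had 9 reads in ES-like cells and none in PFFs, with a log2 ratio of at least 3.67, and the nearest inside had 11, with a log2 ratio of 5.55. The ES-like cells were derived from blastocysts made in vitro and were grown as colonies on mitomycin-treated mouse embryonic fibroblasts, in DMEM and Ham's F10 with serum, stem cell factor and basic fibroblast growth factor. The PFFs were of mixed breed, came from fetuses without head, limbs and internal organs, and were grown in DMEM with serum and no feeder cells. According to the sample sheet of the study, the ES-like cells were female (XX) and the PFFs male (XY). Each cell type had 1 library, so feeder cells, medium, sex, developmental stage of the source and cell type cannot be told apart. No p-value is given. The series also has 1 library of embryoid bodies (PEBs), made from the ES-like cells in hanging drops without cytokines, and 2 libraries of day 7 parthenogenetic blastocysts (BL_1 and BL_2).

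A miRNA is cut from a hairpin precursor and guides a silencing complex to messenger RNAs that pair with its seed. miRNAs are often transcribed together from clusters, and a few of them can make up most of the miRNA pool of a cell. In mammalian pluripotent cells the miR-302, miR-371 and miR-17 groups of clusters are known for promoting the cell cycle, while the let-7 family builds up during differentiation. Fibroblasts are known for miR-21, the miR-143 and miR-145 pair and the miR-199 and miR-214 group, and epithelial cells for the miR-200 family and the miR-183 cluster.

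Mature miRNA reads numbered 6372500 in ES-like cells and 27071931 in PFFs. Levels are reads per 1000000 mature miRNA reads (RPM). With 3 counts as the limit for a name without a read, its level may reach 0.471 RPM in ES-like cells and 0.111 RPM in PFFs. The blastocyst libraries were shallower, with 113743 reads in BL_1 and 2782150 in BL_2, and their limits were 26.4 and 1.08 RPM. In the sequencing summary of the study, the mature read totals of these libraries stand the other way round from the column totals. That summary gives the ES-like library more mature than aligned reads, which the column totals do not. Columns were assigned by their names. Intervals cover counting error alone, since PCR copies of a molecule are counted as separate reads. Of the 292 names, 261 had at least 10 reads in both libraries, 14 in ES-like cells alone and 17 in PFFs alone. 52 of them were sums over more than 1 precursor. For 21 of these, among them ssc-miR-363, ssc-miR-340 and ssc-miR-34c, the precursors had equal counts in both libraries, so that their levels may be multiplied while ratios between nonzero counts are not. Some other names had precursors with similar but unequal counts, so their reads may be counted again too. In addition, 11 names formed pairs with counts that differed by at most 1 read or 0.1% in every library, such as ssc-miR-490 and ssc-miR-490-3p, so the same reads may have been counted under both.

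Among reported names, the pools differed first in how much a single miRNA took up. Shares are of the mature reads of these names, without predicted loci. ssc-miR-21, a miRNA induced by growth signals and common in cultured mesenchymal cells, had 14153426 reads or 52.3% of the PFF library (95% Wilson interval 52.3 to 52.3%) and 986772 reads or 15.5% of the ES-like library (15.5 to 15.5%). In ES-like cells the most abundant reported name was ssc-miR-148a-3p with 1020491 reads or 160140 RPM, against 15316 RPM in PFFs. A predicted locus outside these totals had more, with 3980216 reads in ES-like cells and 24 in PFFs, and is described in the closing section. The 5 most abundant names held 53.5% of the reads of ES-like cells and 75.3% of those of PFFs. The 10 most abundant names of each library had 5 in common.

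**Figure D1:**
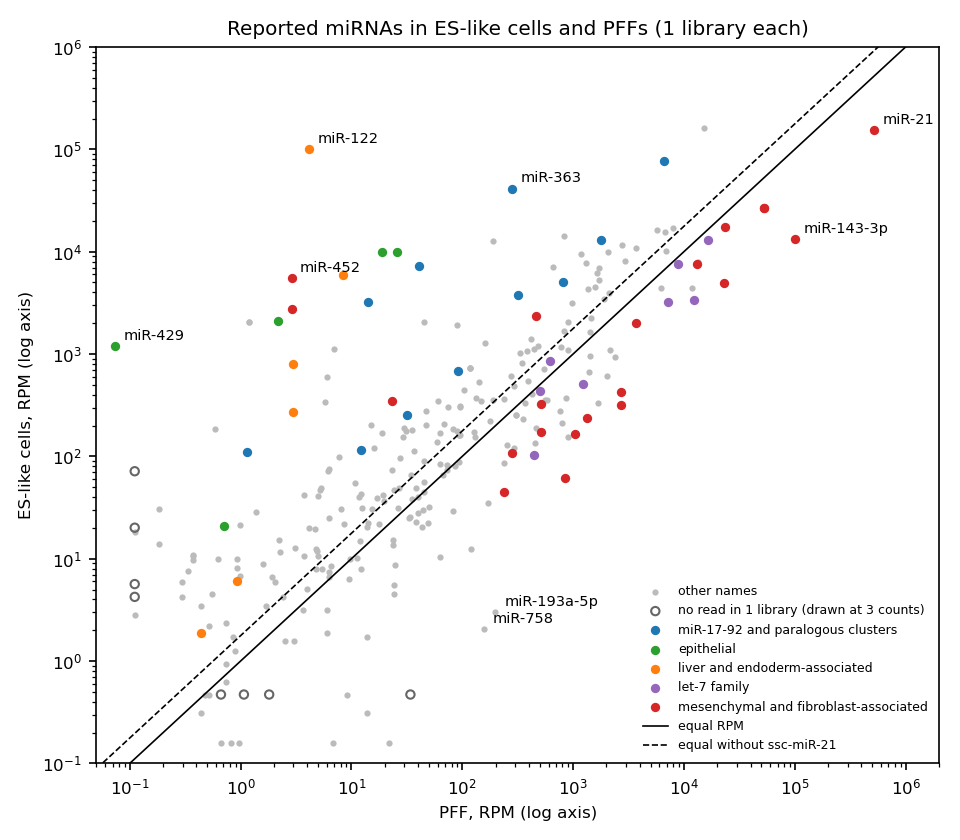
Level of each of the 292 miRNA names in PFFs (x axis, RPM, log scale) and ES-like cells (y axis, RPM, log scale), 1 library each. Points are names, coloured by group, open circles had no read in 1 library, and the dashed line marks equal levels when ssc-miR-21 is left out of both totals. Most points lie above the solid line of equal RPM, ssc-miR-122 lies at 101004 RPM in ES-like cells and 4.14 RPM in PFFs, and ssc-miR-21 lies farthest to the right.

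On RPM, 149 of the 292 names were more than 2-fold higher in ES-like cells (51.0%) and 51 were more than 2-fold higher in PFFs (17.5%), with a median log2 ratio of 1.02. A scaling adds 1 constant to the log2 ratio of every name, so it changes the balance of the calls and not their order. Without ssc-miR-21 in both totals, every ratio fell by 0.82 on the log2 scale and the median was 0.20. Then 104 names were higher in ES-like cells (35.6%) and 87 in PFFs (29.8%), and 38 names passed from above to below equality. TMM factors, which assume that most names do not differ, lowered the ratios further and gave 81 names for ES-like cells (27.7%) and 119 for PFFs (40.8%). Scaling by the median of ratios gave 92 (31.5%) and 100 (34.2%). Totals without the 5 most abundant names of each library gave 108 (37.0%) and 83 (28.4%), and so did totals with the reads of loci predicted outside miRBase. In all, 6 scalings were compared, and in the rest of the text a name is called higher only where it was past 2-fold on each of them. That held for 81 names in ES-like cells (27.7%) and 51 in PFFs (17.5%). Past 4-fold were 100 names in ES-like cells (34.2%) and 27 in PFFs (9.25%) on RPM. Past 4-fold on each scaling were 52 names in ES-like cells (17.8%) and 27 in PFFs (9.25%). Levels are given in RPM and ratios as log2 of ES-like cells over PFFs on RPM, with 95% exact intervals, unless another scale is named.

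**Figure D2:**
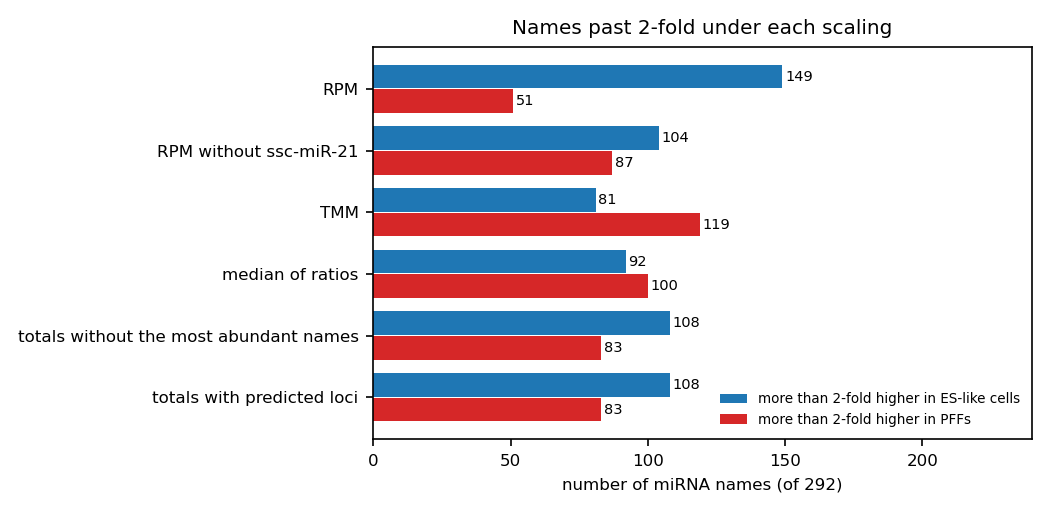
Number of miRNA names (x axis, of 292) more than 2-fold higher in ES-like cells (blue) or in PFFs (red) under each of the 6 scalings (y axis). Names higher in ES-like cells range from 149 on RPM to 81 with TMM, and names higher in PFFs from 51 to 119.

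The steepest difference among abundant names was that of ssc-miR-122, which is known as the dominant miRNA of hepatocytes. It had 643647 reads or 101004 RPM in ES-like cells and 112 reads or 4.14 RPM in PFFs, a log2 ratio of 14.58 (14.31 to 14.86). PEBs had 54096 RPM, BL_1 1767 RPM and BL_2 837 RPM, so each of the other libraries lay between. Among the reported names of ES-like cells, ssc-miR-122 ranked after ssc-miR-148a-3p and ssc-miR-21, with 10.1% of their mature reads. ssc-miR-192 and ssc-miR-194a, neighbouring genes of gut and liver epithelium, were at 5926 and 795 RPM in ES-like cells and at 8.42 and 2.99 RPM in PFFs. ssc-miR-215, of the same seed group as miR-192, had 1730 reads against 81. Of 7 liver and endoderm-associated names, 6 reached 10 reads and 5 were higher in ES-like cells on each scaling, against 27.7% of all names. The exception, ssc-miR-217, had 12 reads in each library over 2 precursors with equal counts. These may be 6 reads, under the minimum of 10. The group held 10.8% of the reads of ES-like cells and 0.00200% of those of PFFs.

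Epithelial miRNAs divided the libraries as sharply. ssc-miR-429, a member of the miR-200 family that represses the mesenchymal factors ZEB1 and ZEB2, had 7638 reads in ES-like cells and 2 in PFFs. The ratio of 13.99 rests on these 2 reads and has an interval from 12.13 to 17.03. Its level was 1199 RPM in ES-like cells, 718 RPM in PEBs and 23.4 RPM in BL_2, and BL_1 had no read. The members of the miR-183 cluster, which is expressed in sensory and other epithelia, stood close together. ssc-miR-183 was at 9973 RPM in ES-like cells and 19.0 RPM in PFFs, ssc-miR-182 at 9973 and 25.9 RPM and ssc-miR-96-5p at 2098 and 2.18 RPM. The blastocyst libraries had as much of ssc-miR-182 as ES-like cells or more, with 16203 RPM in BL_1 and 27137 RPM in BL_2. ssc-miR-205, a miRNA of stratified epithelia, had 134 reads in ES-like cells and 19 in PFFs. Of 10 listed epithelial names, 5 were compared and the others were not analysed here. All 5 were higher in ES-like cells on each scaling, against 27.7% of all names.

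ssc-miR-452 and ssc-miR-224 lay within GABRE, a gene for a subunit of the GABA receptor, in the RefSeq annotation of Sscrofa11.1. ssc-miR-452 had 35216 reads in ES-like cells and 78 in PFFs, a log2 ratio of 10.91 (10.59 to 11.25), and ssc-miR-224 had 17730 and 78 reads, a log2 ratio of 9.92 (9.59 to 10.26). Both had been listed here among mesenchymal miRNAs, and their values go against that list. ssc-miR-490-3p had 13148 reads in ES-like cells and 32 in PFFs, and its sister arm ssc-miR-490-5p 456 and 0. With PFFs at the limit of 3 counts, ssc-miR-490-5p was at least 646-fold higher in ES-like cells on RPM and at least 365-fold without ssc-miR-21. PEBs had 124 RPM of ssc-miR-490-3p against 2063 RPM in ES-like cells. Each name of miR-490 had 2 precursors with equal counts, so the levels may be doubled. The ratios of ssc-miR-490 and ssc-miR-490-3p would not change, while the bound of ssc-miR-490-5p on RPM would be 323-fold with 1 precursor.

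The miR-17 group comprises 3 paralogous clusters in mammals, whose members with the miR-17, miR-18, miR-19 and miR-92 seeds are known targets of MYC and promote growth. Of 14 listed names, 11 were compared, and all 11 were higher in ES-like cells on each scaling, with a median log2 ratio of 3.55 on RPM and 2.72 without ssc-miR-21, against 1.02 and 0.20 for all names. Together they held 0.993% of the reads in PFFs, 15.2% in ES-like cells and 7.87% in PEBs. The blastocysts had 5.66% in BL_1 and 5.19% in BL_2. These shares add the counts of all precursors of a name, so they may be too high where reads fit several precursors. The names of the original cluster differed by a similar factor, from a log2 ratio of 2.63 for ssc-miR-17-5p, at 5000 RPM in ES-like cells and 806 RPM in PFFs, to 3.57 for ssc-miR-92a, at 77449 and 6544 RPM. The names that belong to the X-linked paralogous cluster alone differed far more. ssc-miR-106a was at 3246 RPM in ES-like cells and 14.1 RPM in PFFs, with a log2 ratio of 7.85, and ssc-miR-20b was at 7277 and 40.9 RPM, with 7.48. ssc-miR-363 was at 41258 and 280 RPM, with 7.20, and ssc-miR-18b at 110 and 1.15 RPM, with 6.58. The gap between these 4 names and the other 7 was not tested, since members of a cluster are not replicates. ssc-miR-363 and ssc-miR-20b each had 2 precursors with equal counts, such as 131457 reads for each copy of miR-363 in ES-like cells, so their levels may be doubled while the ratios are not. ssc-miR-19b and ssc-miR-92a are encoded in both clusters, and their reads cannot be assigned to either. The precursors of ssc-miR-92a had 252258 and 241284 reads in ES-like cells, and those of ssc-miR-19b 11884 and 11969. The levels of both names may therefore also count reads again.

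Of 7 names listed for the miR-371 and miR-302 clusters, which mark embryonic stem cells, ssc-miR-371-5p was analysed and 6 were not analysed here. It had 197 reads or 30.9 RPM in ES-like cells and 5 reads or 0.185 RPM in PFFs, a log2 ratio of 7.39. PEBs had 8 reads. In BL_1 and BL_2 it made up 32.5% and 29.6% of the reads, so the level in ES-like cells was low beside that of the blastocysts although it was higher than in PFFs.

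ssc-miR-148a-3p, known to target DNA methyltransferases, was at 160140 RPM in ES-like cells and 15316 RPM in PFFs. The log2 ratio was 3.39 on RPM and 2.56 without ssc-miR-21. Its sister arm ssc-miR-148a-5p had 12331 and 2414 reads, with a log2 ratio of 4.44. Both arms were thus higher in ES-like cells on each scaling.

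In PFFs the highest names after ssc-miR-21 were mesenchymal. ssc-miR-143-3p, which is cotranscribed with miR-145 in smooth muscle and fibroblasts, had 2747983 reads or 101507 RPM in PFFs and 84285 reads or 13226 RPM in ES-like cells, a log2 ratio of -2.94. BL_2 had 60.4 RPM, and BL_1 had 2 reads, under its limit of 26.4 RPM. ssc-miR-143-5p was at 852 RPM in PFFs and 62.1 RPM in ES-like cells, a log2 ratio of -3.78 (-3.92 to -3.63), the lowest of the pair's arms. ssc-miR-145-5p was at 2692 and 321 RPM, with -3.07, and ssc-miR-145-3p at 511 and 174 RPM, with -1.55. ssc-miR-221-3p and ssc-miR-222, neighbours that repress the cell cycle inhibitor p27, had log2 ratios of -2.65 and -2.66, at 2681 and 1038 RPM in PFFs and 426 and 164 RPM in ES-like cells. ssc-miR-100, of the miR-99 family and next to let-7a-1 in the RefSeq annotation, was at 23148 RPM in PFFs and 4995 RPM in ES-like cells, with -2.21.

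The miR-199 names were among the 5 most abundant of PFFs, yet they were less than 2-fold apart on RPM. ssc-miR-199a-3p had 52517 RPM in PFFs and 26516 RPM in ES-like cells, a log2 ratio of -0.99, and ssc-miR-199b-3p differed from it by at most 30 reads in these libraries. ssc-miR-199a-5p was at 23636 and 17392 RPM, with -0.44. Without ssc-miR-21 these ratios were -1.81, -1.81 and -1.27, past 2-fold. ssc-miR-199b-5p, whose precursor lies within DNM1 in the RefSeq annotation, was at 1337 and 239 RPM and was higher in PFFs on each scaling, with -2.48 on RPM.

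Of 21 names in the mesenchymal and fibroblast-associated list, 11 were higher in PFFs on each scaling, against 17.5% of all names, and 3 were higher in ES-like cells, against 27.7%. These 3 were ssc-miR-452, ssc-miR-224 and ssc-miR-31, the last at 349 RPM in ES-like cells and 23.1 RPM in PFFs. The list held 80.4% of the reads in PFFs, 43.5% in PEBs and 26.6% in ES-like cells, against 4.65% in BL_1 and 7.67% in BL_2. Its names other than ssc-miR-21 held 28.1% of all reads in PFFs, 24.6% in PEBs and 11.1% in ES-like cells. BL_1 had 0.795% and BL_2 0.677%. Here ssc-miR-21 stays in the totals, of which it made up 52.3% in PFFs, 18.9% in PEBs and 15.5% in ES-like cells. The shares of the other names are therefore not on the scale without ssc-miR-21 that is used for ratios. All the shares of this list count the reads of ssc-miR-199a-3p again under ssc-miR-199b-3p and for each of 3 precursors. An alternative chosen after seeing the data counted them once, with ssc-miR-21 still in the totals. The names other than ssc-miR-21 then held 21.2% in PFFs, 13.0% in PEBs and 7.03% in ES-like cells. Other sums over precursors were left as they were, such as ssc-miR-199a-5p with 320146 and 319715 reads in PFFs. These shares may therefore still count some reads again. The ES-like cells were grown on mouse fibroblasts, and the part of feeder reads in these shares was not tested.

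The let-7 family, which is held down by LIN28 in pluripotent cells, was lower in ES-like cells in part. On each scaling, 4 of its 8 names were higher in PFFs, against 17.5% of all names, namely ssc-let-7a, ssc-let-7e, ssc-let-7g and ssc-miR-98. ssc-let-7a was at 12316 RPM in PFFs and 3359 RPM in ES-like cells, a log2 ratio of -1.87, and ssc-miR-98 at 447 and 104 RPM, with -2.11. ssc-let-7f was at 16557 RPM in PFFs and 13140 RPM in ES-like cells, with -0.33. It was the most abundant of the family in both libraries when its 2 precursors were summed. Its largest precursor had 225884 reads in PFFs and 43675 in ES-like cells, below ssc-let-7i with 239224 and 48009. ssc-let-7c was at 615 RPM in PFFs and 862 RPM in ES-like cells, and its ratio was 0.49 on RPM but -0.34 without ssc-miR-21. The family held 2.91% of the reads in ES-like cells, 4.77% in PFFs and 7.99% in PEBs. Its median log2 ratio was -0.75 on RPM and -1.57 without ssc-miR-21, and none of the 8 names lay above the median of all names. Without ssc-miR-21 in both totals, 7 of the 8 were past 2-fold toward PFFs, against 29.8% of all names.

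**Figure D3:**
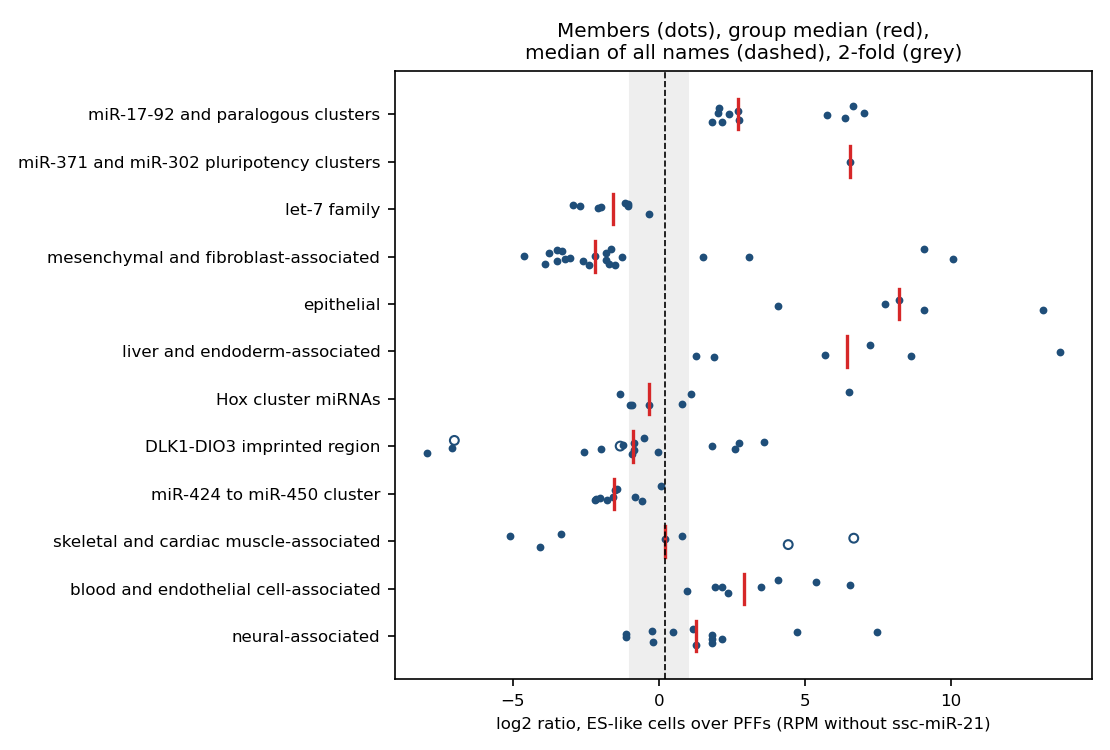
Log2 ratio of ES-like cells over PFFs (x axis, RPM without ssc-miR-21) for the names of each of 12 groups (y axis). Dots are names, open dots are bounds for names without a read in 1 library, red bars are group medians, the dashed line is the median of all 292 names (0.20) and the grey band is 2-fold. Epithelial, endoderm and miR-17 names lie to the right, let-7 names and most mesenchymal names to the left.

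The imprinted DLK1-DIO3 region, whose maternally expressed miRNAs are often transcribed together, held names on both sides. Of 19 listed names, 16 were compared, and on each scaling 4 were higher in ES-like cells, against 27.7% of all names, and 5 in PFFs, against 17.5%. ssc-miR-758 had 13 reads in ES-like cells and 4257 in PFFs, a log2 ratio of -6.27 (-7.18 to -5.49). ssc-miR-432-5p had no read in ES-like cells and 922 in PFFs, so that it was at least 72.3-fold lower in ES-like cells on RPM with the limit of 3 counts. ssc-miR-493-3p had 1 and 595 reads. ssc-miR-370 and ssc-miR-323 were lower in ES-like cells by smaller factors, with log2 ratios of -1.72 and -1.14. On the other side, ssc-miR-376a-5p had 137 and 27 reads, ssc-miR-376c 63 and 25, ssc-miR-136 480 and 171 and ssc-miR-127 1194 and 803, with log2 ratios of 4.43, 3.42, 3.58 and 2.66. ssc-miR-411, ssc-miR-382 and ssc-miR-369, whose precursor is listed 2 times with equal counts, were within 2-fold on RPM.

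The miR-424 to miR-450 cluster, an X-linked cluster whose miR-424 and miR-503 are related to miR-16, had 3 of 10 names higher in PFFs on each scaling, against 17.5% of all names, and none in ES-like cells, against 27.7%. The most abundant was ssc-miR-450c-5p with 2370 RPM in PFFs and 925 RPM in ES-like cells. Without ssc-miR-21 in both totals, 7 of the 10 names were past 2-fold toward PFFs, against 29.8% of all names. Of the names of the Hox clusters, ssc-miR-196a was at 1117 RPM in ES-like cells and 6.94 RPM in PFFs, a log2 ratio of 7.33, while ssc-miR-196b-5p was at 329 and 368 RPM, with -0.16. ssc-miR-10a-5p and ssc-miR-10b were called in neither direction.

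Muscle-associated names lay on both sides, also within a family. Of 7 compared, 2 were higher in ES-like cells on each scaling and 3 in PFFs, against 27.7% and 17.5% of all names. ssc-miR-1 was at 898 RPM in PFFs and 155 RPM in ES-like cells and ssc-miR-133a-3p at 119 and 12.6 RPM, while ssc-miR-206 had 128 reads in ES-like cells and none in PFFs, at least 181-fold higher on RPM. ssc-miR-133b, the neighbour of miR-206, had 22 and 46 reads, and its log2 ratio of 1.02 on RPM became -0.45 with TMM. Among 8 blood and endothelial names, 7 were higher in ES-like cells on each scaling, against 27.7% of all names, but 5 of the 7 had at most 116 reads in either library. ssc-miR-126-3p, a miRNA of endothelium, was at 1294 RPM in ES-like cells and 161 RPM in PFFs, and ssc-miR-451 and ssc-miR-144 of red blood cells had 88 and 116 reads in ES-like cells and 5 and 3 in PFFs. Of 13 neural-associated names compared, 6 were higher in ES-like cells on each scaling, against 27.7% of all names, and none in PFFs, against 17.5%. ssc-miR-138 had 1183 and 16 reads and ssc-miR-128 was at 9487 and 1187 RPM. The 3 names of miR-9, at 730 RPM in ES-like cells and 116 RPM in PFFs, had the same reads within 1 count and take up 3 of the 6.

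Genes of miRNAs that lie within 10 kb of each other in the RefSeq annotation of Sscrofa11.1 were grouped, for the 307 of 382 precursors placed on a chromosome there. This gave 34 groups of neighbours with at least 2 compared names. The span of log2 ratios within a group, from lowest to highest, had a median of 1.12, while the interquartile range over all names was 3.18. These are unlike measures, and many groups held few names, both arms of 1 hairpin or a name shared with another group. The contrast therefore does not measure how well neighbours agreed. Without ssc-miR-21 in both totals, every name was past 2-fold toward ES-like cells in 10 groups and toward PFFs in 9. A name encoded in several groups counts in each. On this scale 35.6% and 29.8% of all names were past 2-fold in these directions. Not all names of these groups were past 2-fold on each scaling, such as ssc-miR-214 with -0.68 on RPM. In 1 group names were past 2-fold in both directions. It held ssc-miR-127, ssc-miR-432-5p and ssc-miR-136 of the DLK1-DIO3 region, with a span of at least 9.75, since ssc-miR-432-5p had no read in ES-like cells. The pair of miR-206 and miR-133b spanned at least 6.48 and the cluster of miR-363 and miR-106a 4.30, the latter through ssc-miR-19b and ssc-miR-92a, which are also encoded elsewhere. ssc-miR-29a, ssc-miR-29b and ssc-miR-29c, repressors of collagens, lay between -0.48 and 0.04 without ssc-miR-21.

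**Figure D4:**
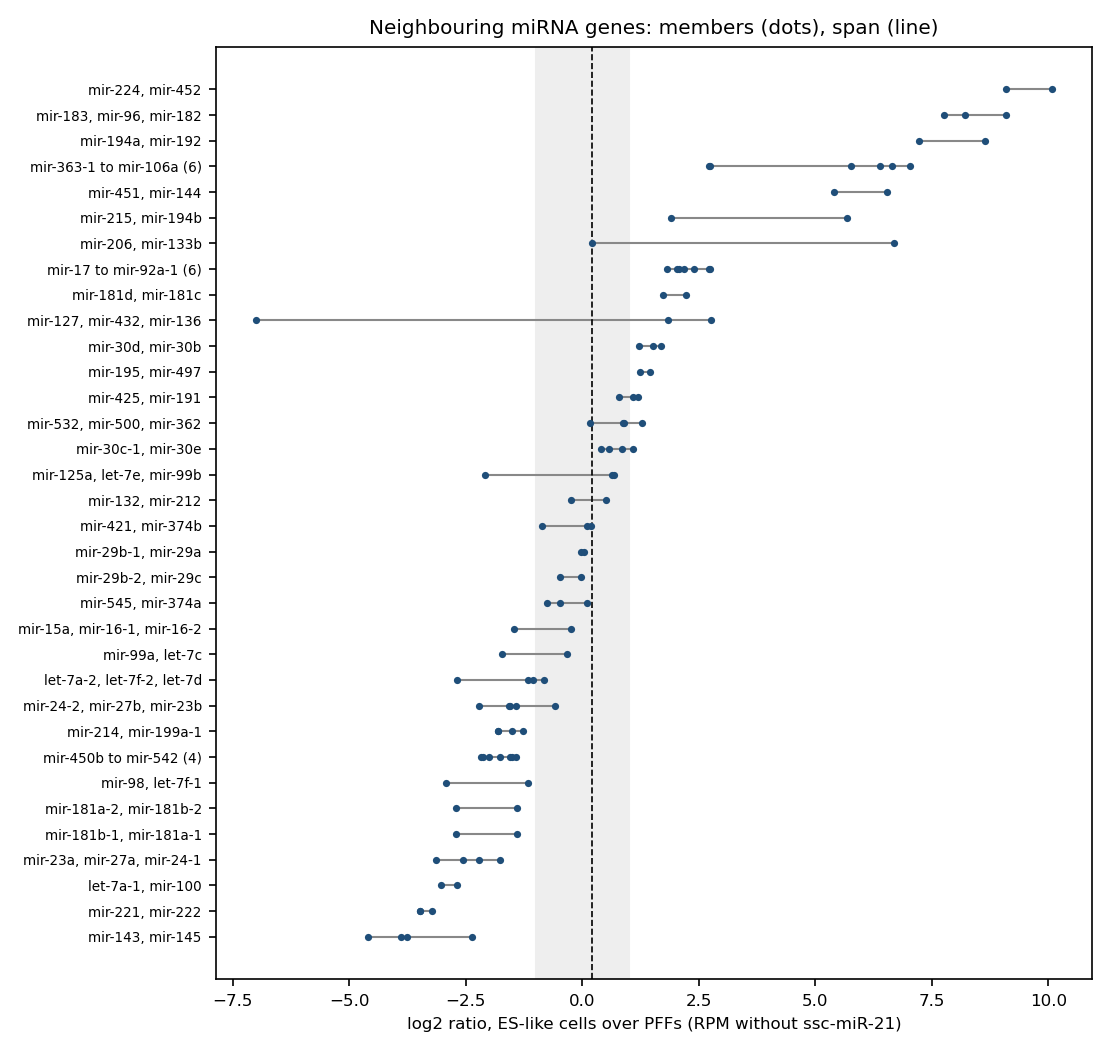
Log2 ratio of ES-like cells over PFFs (x axis, RPM without ssc-miR-21) of the names in each of 34 groups of neighbouring miRNA genes (y axis, with the number of precursors in brackets for larger groups). Dots are names, with ssc-miR-432-5p and ssc-miR-206 drawn at their bounds, lines join the lowest and the highest of a group, the dashed line is the median of all names and the grey band is 2-fold. Names of most groups lie close together, and miR-127 to miR-136 has the widest span.

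Both arms of a hairpin were compared for 57 precursors. Over all 57 the median difference between the log2 ratios of the arms was 0.60. In 38 the arms differed by at most 1 and in 5 by more than 2. No pair was past 2-fold in opposite directions without ssc-miR-21. The widest difference was that of miR-493, with 163 reads of the 5p arm and 1 of the 3p arm in ES-like cells and 917 and 595 in PFFs. The 5p arm thus had 99.4% of the reads of this hairpin in ES-like cells and 60.6% in PFFs. For miR-193a, the 5p arm had 19 and the 3p arm 12 reads in ES-like cells, against 5296 and 162 in PFFs. In 4 hairpins the arm with more reads was not the same in both libraries, and 1 of them was miR-1306, with 41.2% of its reads on the 5p arm in ES-like cells and 78.4% in PFFs.

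The other libraries of the series were set beside the names that were past 4-fold on each scaling, on log2(RPM + 1). Of the 52 names higher in ES-like cells, PEBs lay between ES-like cells and PFFs for 40 and above both for 12. For 44 of them PEBs were nearer to the ES-like cells from which they were made. Of the 27 names higher in PFFs, PEBs lay between for 19, below both for 7 and above both for 1, and they were nearer to ES-like cells for 22. The names were chosen by their distance between ES-like cells and PFFs, which in itself favours another library lying between. The same counts were not made over all compared names, so these do not measure how alike PEBs and ES-like cells were. The blastocysts took neither side throughout. ssc-miR-193a-5p was at 196 RPM in PFFs, 220 RPM in BL_1 and 208 RPM in BL_2, but at 2.98 RPM in ES-like cells and 2.46 RPM in PEBs. ssc-miR-222 and ssc-miR-1 were also higher in both blastocyst libraries than in ES-like cells, at 2057 and 1132 RPM and at 853 and 1968 RPM. ssc-miR-145-5p had no read in BL_1 and 3 reads in BL_2.

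**Figure D5:**
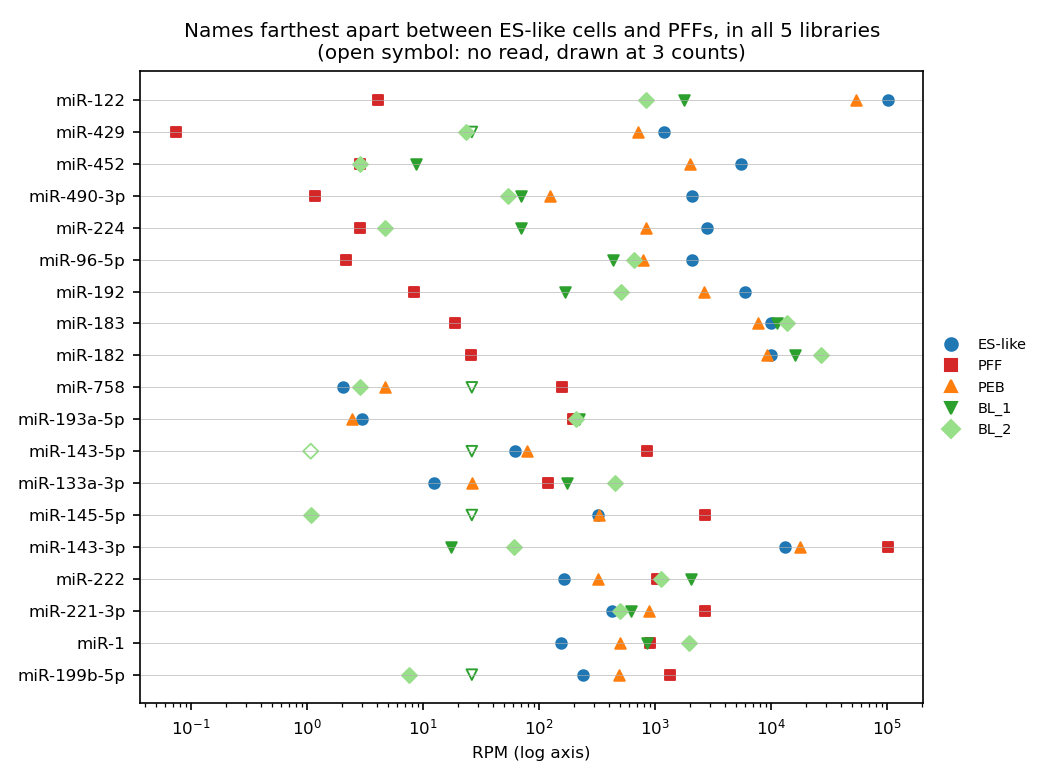
Level (x axis, RPM, log scale) in all 5 libraries of the 10 names farthest up and the 10 farthest down between ES-like cells and PFFs among those with at least 100 RPM in 1 of them (y axis, with ssc-miR-490 shown once, as ssc-miR-490-3p). Symbols are libraries, and open symbols had no read and are drawn at 3 counts. PEBs lie near ES-like cells for most names, while ssc-miR-193a-5p in blastocysts lies at the level of PFFs.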

How the data were processed

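Small RNA of 5 pig samples was sequenced. According to the methods of the study and the submitters' processing notes, reads were trimmed with Cutadapt 1.10, reads that were too short or had no adapter were left out, and the rest were aligned with Bowtie 1.1.1 to Sscrofa10.2 and counted on miRBase miRNAs with miRDeep2. The deposited values are raw counts per mature miRNA and precursor, 1 column per library. How the authors counted reads that fit several precursors is not given in the sources used here. A second deposited table holds read counts of predicted loci, in which 33 cells held 2 counts (the larger was used) and 1 row had no count.

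Counts were summed over precursors and divided by the column total. Ratios have exact conditional binomial intervals (95%). With 1 library a side, no test was run, and the 2-fold rule of the study was applied. Names without a read were set to 3 counts as a bound. Scalings were RPM, RPM without ssc-miR-21, TMM (edgeR 4.0.16, R 4.3.3), the median of ratios, totals without the 5 most abundant names of each library and totals with predicted loci. The interval and TMM steps were tested on simulated data. The 12 groups and the compared names were chosen with earlier results of these data known. Named miRNAs are, among those with at least 100 RPM in 1 library, the 10 highest and the 10 lowest ratios, the 5 most abundant of each library, names with at least 100 reads in 1 library and none in the other, and group members. ssc-miR-148a-5p, the arms and the neighbours were named after their values were seen. Python 3.11.15, numpy 2.4.6, pandas 2.3.3, scipy 1.17.1 and matplotlib 3.10.9 were used. Alternatives are given in the closing section.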

Additional observations from a re-analysis of the deposited data

Results flagged for a closer look

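The comparison used reported miRNAs alone. In the table of loci predicted outside miRBase, 3 entries had reads equal to at least 1% of the mature miRNA reads of ES-like cells or PFFs, above the limit of 3 counts. Coordinates are on Sscrofa10.2. On chromosome 8, positions 115200079 to 115200140 were covered by 3980216 reads of ES-like cells, equal to 62.5% of their mature reads, and by 24 of PFFs. Positions 115200553 to 115200622 of the same chromosome were covered by 145229 reads of ES-like cells, and an entry on scaffold GL894213.2 from 15524 to 15591 had 145183, so both may hold the same reads. Neither was predicted in PFFs, which is not the same as 0 reads. With distinct counts of all predicted loci added, predictions equalled 70.1% of the mature reads in ES-like cells and 0.228% in PFFs. The identity of these loci was not tested.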

How the results depend on the processing

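The balance of calls rested on the scale. Names higher in PFFs numbered 51 on RPM, 87 without ssc-miR-21, 119 with TMM, 100 with the median of ratios, 83 without the 5 most abundant names of each library, 83 with predicted loci in the totals and 27 with a 4-fold threshold. Names higher in ES-like cells numbered 149 on RPM, and fell to 81 with TMM and 92 with the median of ratios, while under each other alternative they stayed within 1.5 times. The median log2 ratio of 1.02 became 0.20, -0.45, -0.075, 0.26 and 0.26 under these 5 scalings and 0.92 with a minimum of 100 reads. The largest precursor count, a pseudocount of 1 RPM and no filter (names above 3 reads in either library) left both counts within 1.5 times. Of 86 named miRNAs past 2-fold on RPM, 76 stayed past 2-fold in the same direction under each alternative applied to them. ssc-miR-133b turned to -0.45 with TMM and -0.075 with the median of ratios, and ssc-miR-212 to -0.15 with TMM. No paired analysis was possible because each cell type had 1 library, and differences between cultures could not be measured.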

Other observations

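Of the 292 names, 179 were in none of the 12 groups, and on each scaling 36 of them were higher in ES-like cells and 25 in PFFs, against 27.7% and 17.5% of all names. Those named here were chosen after their values were seen. ssc-miR-34c, a miRNA of multiciliated cells and a target of p53, had 81242 reads in ES-like cells and 5164 in PFFs, a log2 ratio of 6.06 on RPM. ssc-miR-146b, a repressor of NF-kB signalling, had 3819 and 162 reads, with 6.65. ssc-miR-34c, ssc-miR-340 and ssc-miR-676-3p each had precursors with equal counts, so their levels may be doubled. ssc-miR-340 was at 14231 RPM in ES-like cells and 822 RPM in PFFs, with 4.11. ssc-miR-135 had 2181 and 157 reads, with 5.88. ssc-miR-676-3p, 1 precursor of which lay within EDA in the RefSeq annotation, had 13136 and 1212 reads, with 5.52.

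On the side of PFFs, ssc-miR-193a-5p had the lowest ratio of these names, with 19 reads in ES-like cells and 5296 in PFFs, a log2 ratio of -6.04 (-6.77 to -5.39). ssc-miR-2366 had 2 and 378 reads over 2 precursors with equal counts, so that these may be 1 and 189, and ssc-miR-95 1 and 183. Both arms of miR-708 were lower in ES-like cells, with log2 ratios of -2.61 and -2.40. ssc-miR-23a was at 335 and 1679 RPM, with -2.32, and ssc-miR-365-5p had 11 and 372 reads, with -2.99.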
